A study of Mus musculus with 16 samples.

Results

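The sirtuins are the 7 mammalian NAD-dependent protein deacylases, Sirt1 to Sirt7, and they were followed here in whole kidneys of mice given cisplatin with or without an NAD precursor. The members were taken by gene symbol, so 7 genes were examined of 23935 symbols in the deposited table. Every member passed the filter on low values, which asked for at least 1 TPM (a level scaled for transcript length and library total) in at least 4 of the 16 libraries.

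Sirtuins remove acetyl, succinyl or other acyl groups from lysines and split a molecule of NAD each time they do so, which ties their activity to the NAD supply of the cell. Sirt1, Sirt6 and Sirt7 act mainly in the nucleus, Sirt2 mainly in the cytosol, and Sirt3, Sirt4 and Sirt5 mainly in mitochondria. The proximal tubule, the part of the nephron that takes up most cisplatin, is rich in mitochondria, and Sirt3 is the main deacetylase of the mitochondrial matrix. These are facts about the proteins and their activity, whereas the values below are mRNA levels.

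All kidneys came from WT mice, in 4 groups of 4 libraries. The PBS group received no cisplatin. The cisplatin group received cisplatin alone, and the other groups also received nicotinamide mononucleotide (NMN) or nicotinamide riboside (NR), injected before the cisplatin. Kidneys of the 3 cisplatin groups were taken 3 days after the cisplatin injection. The sources used here do not give strain, age, dose or route of injection. Nothing in the labels ties the 4 libraries of a group to different mice, and the p-values therefore cover only the spread among these libraries, which may be technical.

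The listed TPM values summed to between 860428 and 903678 per library, with 11535 to 12549 genes at 1 TPM or more. TPM divides by transcript length, so levels can be set beside each other between genes, but the values keep no read depth and the counting error behind each is unknown. The tissue label was checked with 12 proximal tubule genes, whose summed level was 8858 to 10290.2 TPM in PBS kidneys and 781 to 1119 TPM in cisplatin kidneys. The 13 mRNAs encoded in mitochondrial DNA made up 25.0 to 34.0% of the listed TPM in PBS, 15.6 to 17.6% in cisplatin, 22.7 to 28.4% with NMN and 22.1 to 30.3% with NR. The 3 libraries given the lowest weights by limma were PBS 1, cisplatin 1 and cisplatin 3, with weights of 0.566, 0.675 and 0.679.

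Where the sirtuin genes lie bears on what their TPM values can hold, because several share ground with a neighbour. Positions are from GENCODE M21 on GRCm38, the build named in the submitters' processing notes. Sirt3 (chr7:140863666-140882309, minus strand) starts head to head with Psmd13, which encodes a subunit of the proteasome lid, and its far end overlaps Ric8a, a chaperone of G protein subunits, by 707 bases. RefSeq gives 2 starts for Sirt3, at 140882309 and 140881869, and 84 bases lie between the first of these and the Psmd13 start at 140882394. Sirt2 (chr7:28766735-28788661, plus strand) starts head to head with Nfkbib, which encodes the inhibitor IκBβ, with 107 bases between the RefSeq starts.

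The sequences of these shared starts are shown because the genes on either side were called differently after cisplatin, as described further on. They are RefSeq sequence of GRCm38.p6, read 5′ to 3′ on the strand of the sirtuin, and capitals mark matches to the searched motifs. The Sirt3 piece covers chr7:140882373-140882402, 30 bases at the Psmd13 end that do not reach either Sirt3 start. The Sirt2 piece covers chr7:28766636-28766760, which takes in all the bases between both starts and 9 more at each end.
Sirt3 to Psmd13: ctcgctcaCTTCCGGcaccgcgggcgcgcg
Sirt2 to Nfkbib: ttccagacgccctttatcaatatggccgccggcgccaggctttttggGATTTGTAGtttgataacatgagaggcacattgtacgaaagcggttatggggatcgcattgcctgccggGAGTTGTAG

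Motifs were searched on both strands in windows of 300 bases around each RefSeq start, 250 before and 50 after. The Sirt3 piece holds the ETS motif CCGGAAG on the opposite strand, a motif found in 8.9% of all 32851 windows. The window of the other Sirt3 start had no match to it, 4 to the GC box GGGCGG and 1 to CCAAT. The Sirt2 piece holds the ZNF143 core CTACANNTC 2 times on the opposite strand, and 0.4% of windows hold it 2 or more times. Sirt4 (chr5:115478010-115484725, minus strand) also had 2 such matches. The Sirt7 window had 2 ETS matches and the window of 1 of the 2 RefSeq starts of Sirt6 had 1. The Sirt1 window (gene at chr10:63319005-63381704, minus strand) had 7 matches to GGGCGG, present in 35.7% of windows, and 2 to the E-box CACGTG, present in 7.2%. A match is a description of the letters, and binding was not measured.

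In PBS kidneys Sirt3 was the most abundant sirtuin mRNA and Sirt1 the least. Mean levels were 68.7 ± 12.8 TPM for Sirt3, 48.2 ± 8.71 for Sirt2, 44.1 ± 5.1 for Sirt7, 21.8 ± 7.83 for Sirt4, 10.6 ± 1.55 for Sirt5, 5.36 ± 1.89 for Sirt6 and 4.9 ± 0.763 for Sirt1 (SD, n = 4). Sirt3 was above Sirt2 in 4 of 4 libraries although their ranges overlapped. Sirt2 overlapped Sirt7 and Sirt6 overlapped Sirt1, and these neighbours in the order did not differ beyond their spread. The steps from Sirt7 to Sirt4, from Sirt4 to Sirt5 and from Sirt5 to Sirt6 were without overlap.

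After cisplatin the order changed: Sirt2 and Sirt7 came first with 46.2 ± 3.02 and 42.0 ± 3.67 TPM, and Sirt3 followed with 24.7 ± 5.66 TPM (SD, n = 4). All 4 cisplatin libraries had less Sirt3 than Sirt7. Sirt6 came after Sirt4 and was above Sirt5 in 4 of 4 cisplatin libraries though their ranges overlapped. With NMN or NR the order of the means was that of the PBS kidneys, with Sirt3 first at 55.7 ± 6.46 TPM with NMN and 53.1 ± 9.8 TPM with NR. With NMN the lowest place was shared, at 5.91 ± 2.41 TPM for Sirt6 and 5.9 ± 1.31 TPM for Sirt1.

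**Figure D1:**
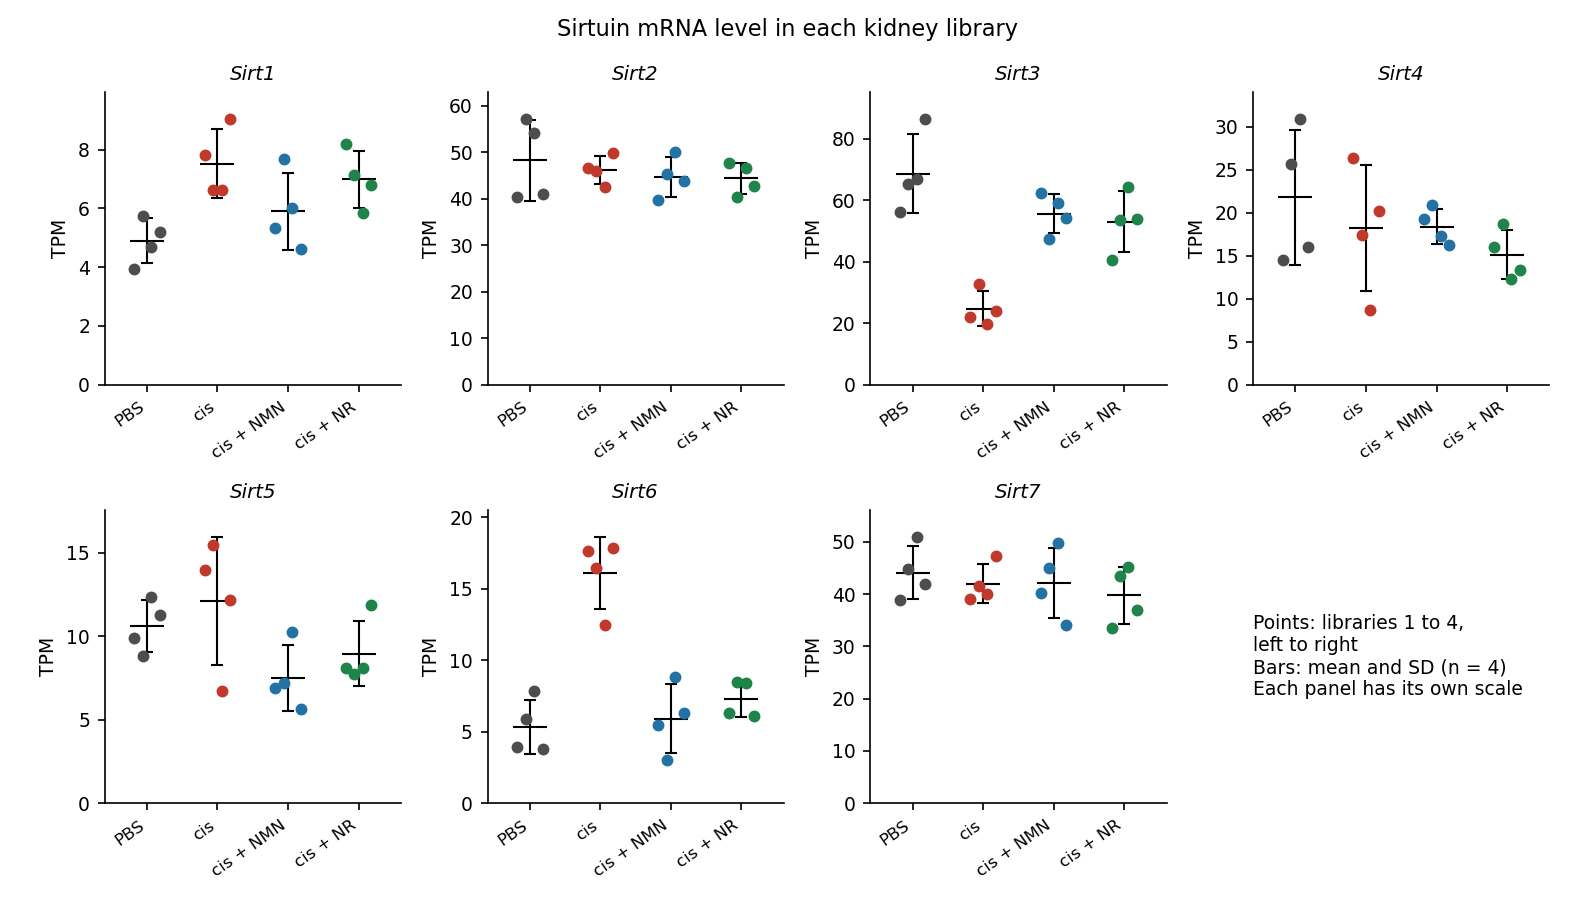
TPM of each sirtuin in every library (points, replicates 1 to 4 from left to right) with the group mean and SD (bars, n = 4), on a linear axis from 0 that differs between panels. The 4 cisplatin libraries lie below all others for Sirt3, at 19.91 to 32.8 TPM, and above all others for Sirt6, at 12.44 to 17.84 TPM.

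Cisplatin was set against PBS to ask what the drug did to the kidney's transcripts. Of the 7 sirtuins, Sirt3 fell, Sirt6 and Sirt1 rose, and 4 did not pass the test, which was limma on log2(TPM + 1) with Benjamini-Hochberg adjustment over 12960 genes at 0.05. The background is high: 59.4% of all tested genes were called in this comparison, 40.7% as higher and 18.6% as lower, so 3 of 7 is no larger a share than among genes at large. The median log2 change of the 7 was -0.04, beside 0.27 over all tested genes. On the log2(TPM + 1) scale a fold change of a low gene is understated.

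Sirt3 deacetylates and activates mitochondrial enzymes such as superoxide dismutase and isocitrate dehydrogenase. PBS libraries 1 to 4 had 56.17, 65.29, 66.79 and 86.58 TPM, and cisplatin libraries 1 to 4 had 22.05, 32.8, 19.91 and 23.97 TPM. The groups did not overlap, and the highest cisplatin library was well under the lowest PBS library. The log2 change was -1.45 (SE 0.17, limma adjusted p = 6.95e-07), and the PBS mean was 2.79 times the cisplatin mean. Among the tested genes 651 had a more negative log2 change. Sirt3 stayed called and lower under each alternative run, with log2 changes from -1.759 to -1.332.

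Markers of several kidney cell types were lower after cisplatin, as Sirt3 was. All 12 proximal tubule genes fell after cisplatin, by a median log2 change of -3.38, and none of them was at 0 in all libraries of a group. Their sum was 6702 to 7962 TPM with NMN and 6211 to 7148 TPM with NR, against the 781 to 1119 TPM after cisplatin alone. The ratio of Sirt3 to Slc34a1, a proximal tubule phosphate transporter, was 0.0182 to 0.0269 in PBS and 0.226 to 0.511 in cisplatin, so Slc34a1 mRNA was lowered more than Sirt3 mRNA. Of the 12 genes Slc34a1 fell the most, at a log2 change of -5.46, and Aqp1 the least, at -1.64, beside -1.45 for Sirt3. Other lists fell as well after cisplatin, where 18.6% of all tested genes were called lower and 40.7% higher. Called lower were 5 of 5 podocyte, 6 of 6 endothelial, 5 of 5 intercalated cell and 5 of 5 red blood cell genes. So were 5 of 6 fibroblast and pericyte, 4 of 6 thick ascending limb and 3 of 4 distal convoluted tubule genes. Principal cell genes were mixed, with 3 of 6 lower and 1 higher. Their sum was 395 to 486 TPM in PBS and 472 to 579 TPM in cisplatin. In cisplatin library 1 the podocyte sum was 76.6 TPM, within the PBS range of 76.5 to 155 TPM. The fibroblast and pericyte sum there was 96.2 TPM, within the PBS range of 81.6 to 209.8 TPM. All 5 tested adipose genes were called higher. Ribosomal protein genes made up 5.7 to 6.97% of the listed TPM in PBS, 15.6 to 17.6% in cisplatin, 7.27 to 9.55% with NMN and 7.6 to 10.3% with NR. The part of these markers and shares in the sirtuin results was not tested. In bulk kidney, fewer cells of a type and less RNA per cell cannot be told apart.

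Sirt4 modifies mitochondrial enzymes of glutamine and amino acid breakdown and has weak deacetylase activity. Its values were scattered, with 14.56, 25.66, 30.95 and 16.07 TPM in PBS and 26.31, 17.41, 8.69 and 20.24 TPM in cisplatin. The groups overlapped widely, and the log2 difference of -0.28 (SE 0.27) was not called (limma adjusted p = 0.384). Sirt5 (chr13:43365496-43395203, plus strand) removes succinyl, malonyl and glutaryl groups. It had 9.89, 8.8, 12.35 and 11.26 TPM in PBS and 13.99, 15.47, 6.71 and 12.16 TPM in cisplatin. Cisplatin library 3 was the lowest of these 8 for both genes, and neither Sirt5's groups were apart nor was its log2 difference of 0.13 (SE 0.22, limma adjusted p = 0.633) called.

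Sirt6 (chr10:81621785-81627797, minus strand) deacetylates histone H3 at chromatin and takes part in DNA repair and in restraint of glycolytic and inflammatory genes. PBS libraries 1 to 4 had 3.96, 5.86, 7.83 and 3.8 TPM, and cisplatin libraries had 17.67, 16.47, 12.44 and 17.84 TPM. Every cisplatin library was above every PBS library. Sirt6 rose by a log2 change of 1.46 (SE 0.24, limma adjusted p = 5.07e-05), a 3.0-fold ratio of means, and 1206 tested genes had a larger log2 change. It kept its call and direction under each alternative run.

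Tubular injury markers were higher in the same libraries. The 7 tubular injury genes all rose after cisplatin, and their summed level was 648 to 917 TPM in PBS, 12639.8 to 14963 in cisplatin, 2657 to 5599 with NMN and 4218 to 6521 with NR. The 7 macrophage genes summed to 42.2 to 89.4 TPM in PBS and 154 to 215 TPM in cisplatin, but as a list they did not move one way: Cd68 and Cd14 rose by log2 changes of 4.66 and 3.85, Csf1r and C1qc fell by 1.56 and 1.38, and the median was -0.33. The part of these cells or of injured tubules in the Sirt6 result was not tested.

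Sirt1 deacetylates p53, FOXO factors, NF-κB and PGC-1α. PBS libraries had 3.95, 5.74, 4.69 and 5.21 TPM and cisplatin libraries had 7.81, 6.63, 6.63 and 9.06 TPM, without overlap. Sirt1 rose by a log2 change of 0.53 (SE 0.16, limma adjusted p = 0.00929) on the deposited scale. This call did not hold when libraries were rescaled by median-of-ratios, so that the typical gene did not move, where the log2 difference was 0.26 (limma adjusted p = 0.13). Nor did it hold without PBS 1, cisplatin 1 and cisplatin 3 together, at 0.499 (limma adjusted p = 0.0606). The count of called sirtuins without those 3 libraries was 2, Sirt3 and Sirt6, where 6391 of 12960 tested genes were called.

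Sirt7 (chr11:120618372-120625240, minus strand) acts in the nucleolus, where it promotes transcription by RNA polymerase I. It had 38.97, 44.73, 50.91 and 41.87 TPM in PBS and 39.08, 41.58, 40.1 and 47.3 TPM in cisplatin, all within the PBS range. Sirt2, which deacetylates α-tubulin and metabolic enzymes, had 40.31, 57.2, 54.03 and 41.1 TPM in PBS and 46.54, 45.96, 42.5 and 49.88 TPM in cisplatin, also inside the PBS range. Neither was called on the deposited scale, with log2 differences of -0.07 (SE 0.13, limma adjusted p = 0.692) for Sirt7 and -0.04 (SE 0.12, limma adjusted p = 0.785) for Sirt2.

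The scale matters for these smaller differences, because the median gene was 0.268 higher (log2) in cisplatin than in PBS libraries. Median-of-ratios scaling brings that median to 0.004 and turns the split of called genes from 5278 higher and 2415 lower into 3813 higher and 3689 lower, or 29.4% and 28.5% of those tested. On that scale Sirt2 was called lower at -0.35 (limma adjusted p = 0.00367), Sirt7 at -0.37 (limma adjusted p = 0.0125) and Sirt4 at -0.58 (limma adjusted p = 0.0421), and the Sirt5 difference turned from 0.13 to -0.16, still not called. Sirt3 was at -1.75 and Sirt6 at 1.18 on that scale, both called. Set against the median gene, Sirt3, Sirt2, Sirt7 and Sirt4 were thus called lower and Sirt6 higher, 5 of 7, while on the deposited scale the calls were Sirt3, Sirt6 and Sirt1.

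**Figure D2:**
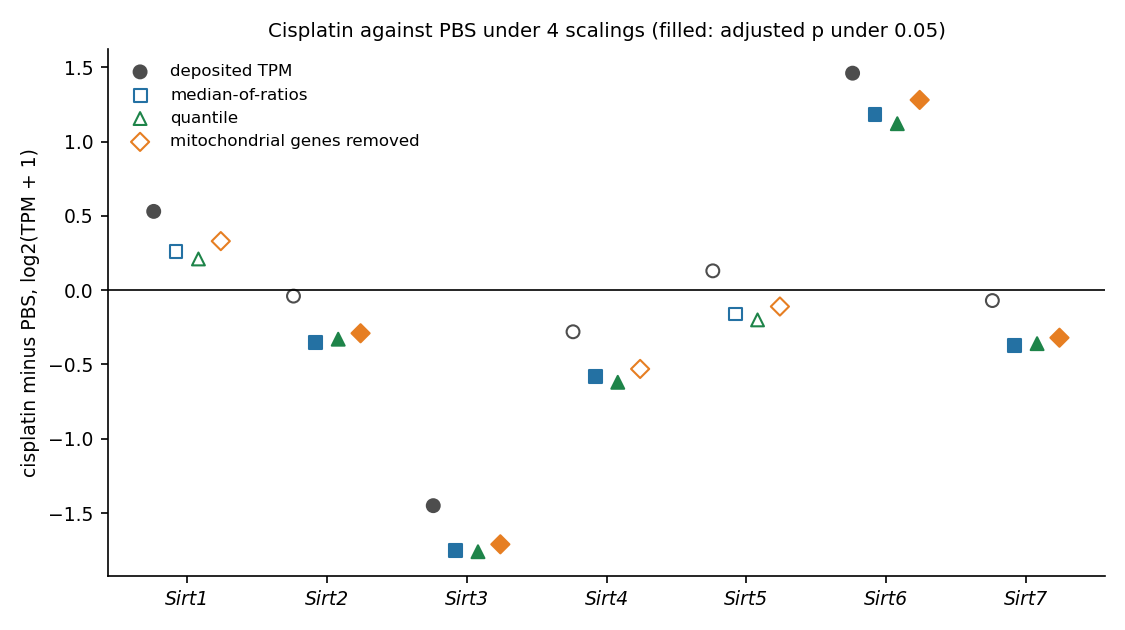
Difference between cisplatin and PBS in mean log2(TPM + 1) for each sirtuin on the deposited TPM values and after 3 other scalings (marker shapes), filled where the limma adjusted p was under 0.05. Sirt3 and Sirt6 are filled on all 4 scales, Sirt1 on the deposited scale alone, and Sirt5 changes sign between the deposited scale and the other 3.

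NMN before cisplatin was set against cisplatin alone to ask what the precursor altered. Sirt3 was higher and Sirt6 and Sirt5 were lower with NMN, 3 of 7 called beside 49.1% of all tested genes. Sirt3 had 62.35, 47.49, 59.03 and 54.11 TPM with NMN, above every cisplatin library. Its log2 change was 1.16 (SE 0.17, limma adjusted p = 1.78e-05), a 2.26-fold ratio of means. Sirt6 had 5.47, 2.99, 8.84 and 6.32 TPM with NMN, below every cisplatin library, with a log2 change of -1.37 (SE 0.24, limma adjusted p = 0.000157).

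Sirt5 had 6.91, 7.18, 10.26 and 5.65 TPM with NMN, and its range overlapped that of cisplatin through cisplatin library 3. Its log2 change was -0.59 (SE 0.22, limma adjusted p = 0.0324). The call was lost when cisplatin 1, 2 or 4 or NMN 1, 2 or 4 was left out, with limma adjusted p-values from 0.0596 to 0.11, and after median-of-ratios scaling, at -0.371 (limma adjusted p = 0.13). Sirt1 had 5.34, 7.67, 6 and 4.61 TPM with NMN, overlapping the cisplatin libraries, and its log2 difference of -0.31 was not called (limma adjusted p = 0.121). Without NMN library 2, the highest of its group, the difference was -0.43 and was called (limma adjusted p = 0.0438).

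Sirt2, Sirt4 and Sirt7 were not called with NMN. Sirt2 had 39.6, 45.22, 49.98 and 43.77 TPM, Sirt4 had 19.24, 20.88, 17.35 and 16.23 TPM, and Sirt7 had 40.18, 44.92, 49.8 and 34.1 TPM. All 3 genes overlapped their cisplatin values. The spread of Sirt4 was narrower with NMN, at an SD of 2.05 TPM against 7.33 TPM in cisplatin, and this difference in spread was not tested.

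With NR, 2 of 7 sirtuins were called against cisplatin, beside 46.6% of all tested genes. Sirt3 had 40.53, 53.56, 64.46 and 53.89 TPM, each above the cisplatin range, with a log2 change of 1.08 (SE 0.17, limma adjusted p = 4.58e-05) and a 2.15-fold ratio of means. Sirt6 had 6.32, 8.48, 8.42 and 6.08 TPM, each below the cisplatin range, with a log2 change of -1.04 (SE 0.24, limma adjusted p = 0.00198). These comparisons share the cisplatin libraries with the ones above, so their values are given side by side and not as separate support for each other.

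Sirt1 stayed near its cisplatin level with NR, at 8.19, 7.14, 5.85 and 6.79 TPM, a log2 difference of -0.09 (SE 0.16, limma adjusted p = 0.672). Sirt5 had 8.11, 7.73, 8.1 and 11.86 TPM with NR and was not called at -0.36 (SE 0.22, limma adjusted p = 0.194). Without cisplatin library 3 the Sirt5 difference was -0.593 and was called (limma adjusted p = 0.0175). Sirt2 had 47.67, 40.44, 46.58 and 42.8 TPM, Sirt4 had 15.97, 18.64, 12.3 and 13.36 TPM, and Sirt7 had 33.56, 43.46, 45.24 and 36.94 TPM. These 3 overlapped their cisplatin values and were not called.

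**Figure D3:**
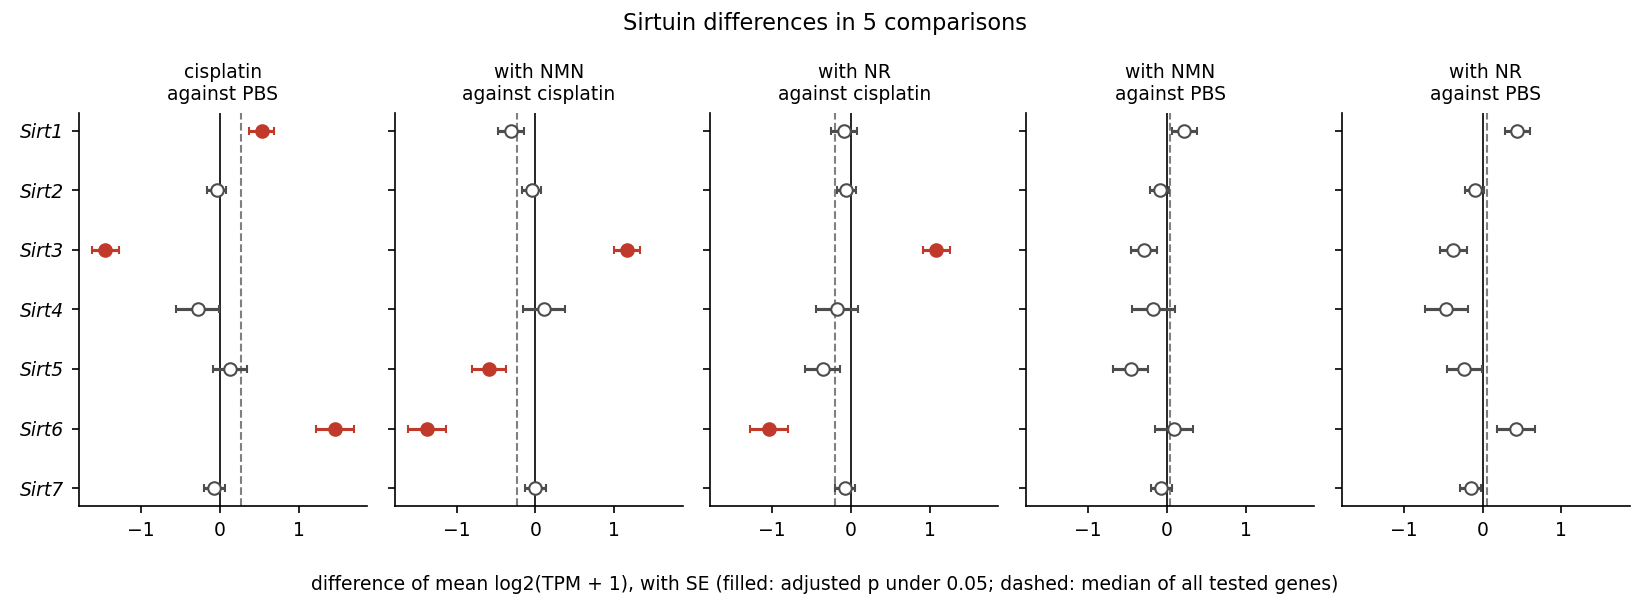
Difference of mean log2(TPM + 1) with its SE for each sirtuin in 5 comparisons, filled where the limma adjusted p was under 0.05. The dashed line marks the median of all tested genes, 0.27 in cisplatin against PBS. Sirt3 and Sirt6 are filled in the first 3 panels and no sirtuin is filled in the last 2.

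Precursor kidneys were also set against PBS to ask what remained different. With NMN, limma called 0 of 7 sirtuins, where 6.0% of all tested genes were called, and 1 of 7 had an unadjusted p under 0.05, Sirt5 at -0.46 (unadjusted p = 0.0494, limma adjusted p = 0.303). With NR, limma again called 0 of 7, where 10.0% of all tested genes were called, and 2 of 7 had an unadjusted p under 0.05. Limma without trend and robust also called 0 of 7 in each. The NR pair were Sirt1, with all 4 NR libraries above all 4 PBS libraries and a log2 difference of 0.44 (limma adjusted p = 0.105), and Sirt3 at -0.37 (limma adjusted p = 0.203). Sirt3 with NMN was at -0.29 (limma adjusted p = 0.437), so the means of both precursor groups were under the PBS mean, by less than the test could call.

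NMN and NR, which differ by a phosphate group, were also set against each other. Limma called 0 of 7 sirtuins and 0.0% of all tested genes, and 0 of 7 had an unadjusted p under 0.05. The lowest unadjusted p was 0.192, for Sirt1, which was 0.22 lower on the log2 scale with NMN. With 370 genes under an unadjusted p of 0.05 among 12960, and 1 gene called when the fit was limited to these groups, the comparison gave no called difference for a sirtuin, which does not show that the precursors act alike. The SE of these log2 differences was 0.12 to 0.27. Without the doses it is not known whether they were matched.

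Shares of the summed sirtuin TPM describe the make-up of the family inside each library. The 7 genes together had 204 ± 25.5 TPM in PBS, 167 ± 20.1 in cisplatin, 180.4 ± 15.2 for NMN and 176 ± 12.9 for NR (SD, n = 4), and the ranges overlapped. Sirt3 made up 29.4 to 42.1% of the sum in PBS, 12.7 to 18.6% in cisplatin, 26.9 to 34.8% with NMN and 25.3 to 33.8% with NR. Sirt6 made up 1.8 to 3.4% in PBS, 9.1 to 10.2% in cisplatin, 1.7 to 4.4% with NMN and 3.5 to 4.7% with NR. Cisplatin libraries were apart from all others in both shares. The 3 mitochondrial sirtuins held 46.8 to 55.3% of the sum in PBS and 25.8 to 37.3% in cisplatin.

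The ratio of Sirt3 to Sirt6 joined these opposite movements in a value that does not depend on how libraries are scaled to each other. It was 14.2, 11.1, 8.53 and 22.8 in PBS, 1.25, 1.99, 1.6 and 1.34 in cisplatin, 11.4, 15.9, 6.68 and 8.56 with NMN, and 6.41, 6.32, 7.66 and 8.86 with NR. The highest cisplatin value, 1.99, was far under the lowest value elsewhere, 6.32. The ratio is built from the 2 members that moved most and is given as a description.

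**Figure D4:**
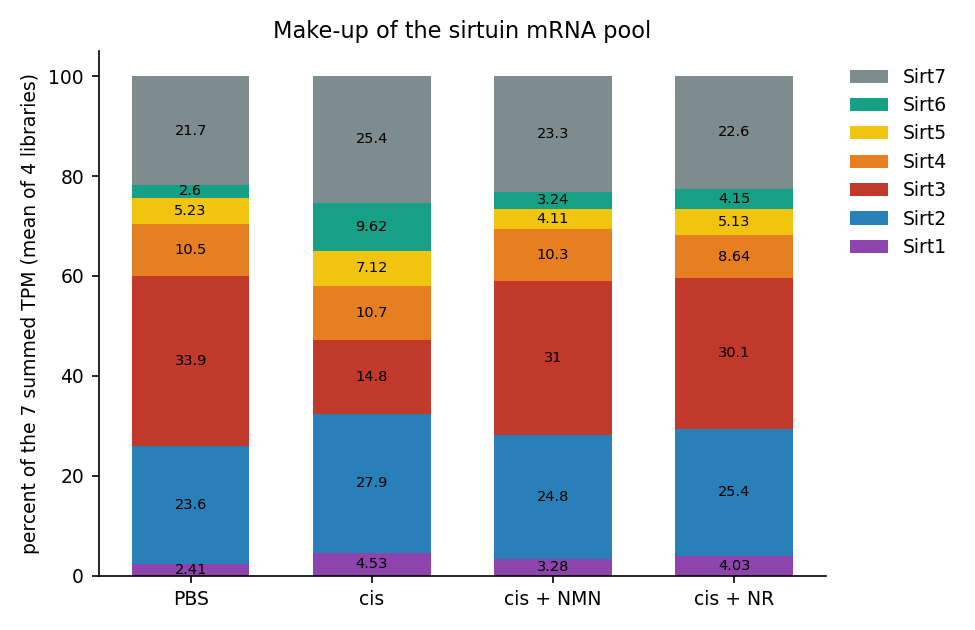
Mean share of each sirtuin in the summed TPM of all 7, in percent, for the 4 groups (stacked bars, mean of 4 libraries). The Sirt3 share is 33.9% in PBS and 14.8% in cisplatin, and the Sirt6 share is 2.6% in PBS and 9.62% in cisplatin.

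The genes that overlap Sirt3 were higher after cisplatin, where Sirt3 was lower. Psmd13, on the other side of the Sirt3 start, rose after cisplatin by a log2 change of 0.66 (SE 0.15, limma adjusted p = 0.00116), from 43.74 to 62.97 TPM in PBS to 61.42 to 99.51 TPM in cisplatin. Ric8a, which overlaps the far end of Sirt3 on the opposite strand, rose by 1.6 (SE 0.14, limma adjusted p = 1.28e-08), with a ratio of means of 3.16. The ratio of Sirt3 to Psmd13 was 1.06 to 1.98 in PBS, 0.241 to 0.378 in cisplatin, 0.685 to 1.19 with NMN and 0.613 to 1.11 with NR. Gene-level TPM does not show which start a transcript used. The sources used here do not say whether reads were counted by strand, so the values of overlapping genes are uncertain where they overlap.

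Nfkbib, which faces Sirt2 across the shown stretch, rose after cisplatin by a log2 change of 1.33 (SE 0.14, limma adjusted p = 3.06e-07). Its range was 19.95 to 27.22 TPM in PBS and 48.35 to 68.1 TPM in cisplatin, and it was 25.74 to 38.68 TPM with NMN and 28.87 to 36.67 TPM with NR. The Sirt2 range in cisplatin was inside that of PBS. The ratio of Sirt2 to Nfkbib was 1.51 to 2.44 in PBS and 0.683 to 0.879 in cisplatin. The gene models of Sirt2 and Nfkbib overlap by 778 bases in GENCODE.

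**Figure D5:**
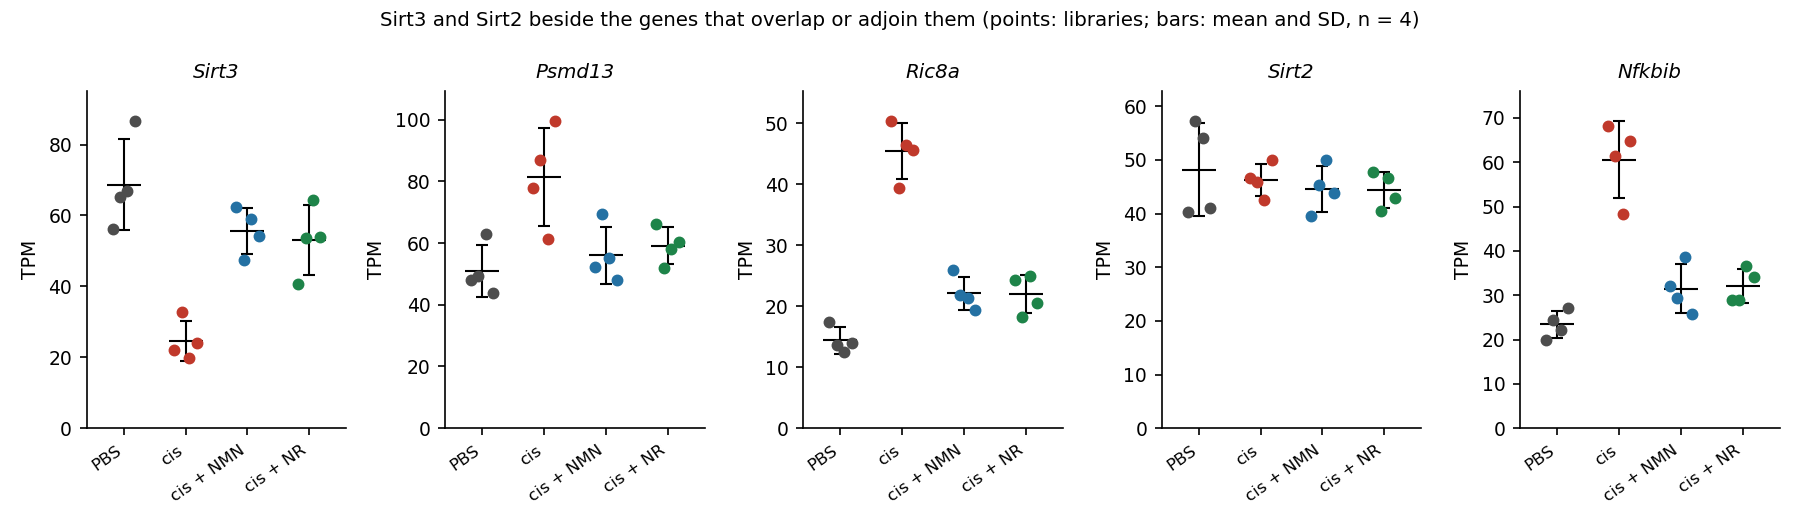
TPM of Sirt3, of Psmd13 and Ric8a beside it, of Sirt2, and of Nfkbib beside it, in every library (points) with the mean and SD (bars, n = 4). In cisplatin Sirt3 is at 24.7 TPM on average and Psmd13 at 81.4, against 68.7 and 51.0 in PBS, while the cisplatin Sirt2 values lie within the PBS range and those of Nfkbib lie above all other groups.

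The remaining neighbours moved in either direction. Dnajc12, a co-chaperone of aromatic amino acid hydroxylases, starts on the other strand 739 bases from the outer edge of the GENCODE model of Sirt1, while the RefSeq start of Sirt1 lies much further inside, at chr10:63339035. It had 132.25 to 182.85 TPM in PBS and 8.53 to 14.5 TPM in cisplatin, a log2 change of -3.62 (limma adjusted p = 2.51e-11). Herc4, a ubiquitin ligase gene at the other end of Sirt1, fell by 1.12 on the log2 scale (limma adjusted p = 1.06e-06), while Sirt1 itself was higher on the deposited scale. Ankrd24, which starts 743 bases from the edge of the GENCODE model of Sirt6, was not called at -0.35 (limma adjusted p = 0.31), beside the rise of Sirt6. The ratio of Sirt6 to Ankrd24 was 0.247 to 0.484 in PBS and 0.87 to 2.32 in cisplatin.

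Around Sirt7, Mafg, a partner of NRF2 whose gene overlaps it by 124 bases, rose by a log2 change of 0.85 (limma adjusted p = 3.12e-05). Pcyt2, an enzyme of phosphatidylethanolamine synthesis on its other side, fell by 1.49 on the log2 scale (limma adjusted p = 2.33e-07). Pxn, the focal adhesion gene paxillin next to Sirt4, rose by 0.88 (limma adjusted p = 1.38e-05), and Nol7 next to Sirt5 rose by 0.88 (limma adjusted p = 0.000635). Rinl and BC025920 were not called, and Pla2g1b, Gfod1 and Mir6936 did not pass the filter. Gm16145, annotated antisense to Sirt1 inside it, was not analysed here. None of the called neighbours named here lost its call under the 3 other scalings.

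The genes whose profile over the 16 libraries was most like that of a sirtuin were found by the root mean square (RMS) difference of log2(TPM + 1) values centred on each gene's mean, among 8707 genes. For Sirt3 they were Scp2, a sterol and fatty acyl carrier of peroxisomes, at 0.154, Iah1 at 0.163 and D10Jhu81e at 0.167, where Sirt3 itself varied by 0.592 about its mean. Scp2 was far more abundant, with 791 ± 90.8 TPM in PBS and 341 ± 71.9 TPM in cisplatin (SD, n = 4). For Sirt6 they were Prr15 at 0.224, Nol12, a nucleolar protein, at 0.252 and Ccdc43 at 0.262, where Sirt6 itself varied by 0.666. Prr15 had 9.26 ± 2.74 TPM in PBS, 31.4 ± 2.9 in cisplatin, 10.8 ± 2.51 with NMN and 14.7 ± 0.76 with NR, as means and SDs of 4 libraries.

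For the remaining sirtuins the values are to be read beside how much each sirtuin itself varied about its mean. That was 0.274 for Sirt1, 0.146 for Sirt2, 0.165 for Sirt7, 0.408 for Sirt4 and 0.367 for Sirt5. Nearest to Sirt1 were Ube2v2, Atg2a and Ubqln4 at 0.152 to 0.157. Among the nearest to Sirt2 were Hsp90b1 and Pcbp1, widely expressed genes of protein folding and RNA binding, at 0.074 and 0.079. Nearest to Sirt7 were Mrpl4, Slc25a38 and Atp5d at 0.105 to 0.112, nearest to Sirt4 were Dusp11, Kdm3b and Zdhhc1 at 0.241 to 0.259, and nearest to Sirt5 were Flad1, Wdr91 and Cbx1 at 0.204 to 0.229. Between sirtuins the smallest RMS difference was 0.158, for Sirt2 and Sirt7, and the largest was 1.174, for Sirt3 and Sirt6. The smallest is about the size of the variation of Sirt2 or Sirt7 itself, so it does not mark a close likeness.

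Lists of genes around the sirtuins were described by counts, to be read against the share of all tested genes. After cisplatin 40.7% of all tested genes were called higher and 18.6% lower. With NMN against cisplatin 15.1% were called higher and 34.0% lower, and with NR 14.4% and 32.2%. After median-of-ratios scaling, called the rescaled values from here on, the shares higher and lower were 29.4% and 28.5% for cisplatin against PBS, 22.3% and 23.5% with NMN against cisplatin, and 21.2% and 22.4% with NR against cisplatin. No test compared a list with other genes.

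Of 20 tested genes for substrates of SIRT3, SIRT4 and SIRT5, 13 fell and 4 rose after cisplatin, where 18.6% and 40.7% of all tested genes did, with a median log2 change of -0.65 beside 0.27 for all genes. On the rescaled values 16 fell and 2 rose, where 28.5% and 29.4% of all tested genes did. Shmt2, a serine hydroxymethyltransferase, fell by 1.87 on the log2 scale (SE 0.1, limma adjusted p = 1.52e-11). Idh2, the mitochondrial isocitrate dehydrogenase, went from 281 ± 34.6 TPM in PBS to 71.5 ± 12.4 TPM in cisplatin (SD, n = 4), with a log2 change of -1.97. Sod2, the mitochondrial superoxide dismutase, fell by 0.97, and Sdha, a subunit of respiratory complex II, fell by 1.11 on that scale.

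With NMN against cisplatin 13 of these 20 rose and 2 fell, and with NR the counts were again 13 and 2, beside 15.1% and 14.4% of all tested genes called higher. Idh2 was at 225 ± 26.1 TPM with NMN and 204 ± 25.8 TPM with NR. The ratio of Sirt3 to Idh2 was 0.216 to 0.309 in PBS, 0.291 to 0.427 in cisplatin, 0.199 to 0.317 with NMN and 0.242 to 0.311 with NR, and the PBS and cisplatin ranges overlap. Proximal tubule genes were lowered in the same libraries, and their part in this was not tested.

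Among 27 genes for substrates and partners of SIRT1, SIRT6 and SIRT7, 18 rose and 5 fell after cisplatin, or 13 and 5 on the rescaled values, with a median log2 change of 0.6 beside 0.27 for all genes. On the deposited scale 40.7% of all tested genes rose and 18.6% fell. Rela, a subunit of NF-κB, rose by 2.18 (SE 0.17, limma adjusted p = 3.31e-09), from 14.4 ± 1.48 TPM to 68.7 ± 9.05 TPM (SD, n = 4). Trp53, which encodes p53, rose by 1.94, and Npm1, the nucleolar protein nucleophosmin, rose by 1.26. Acss2, the cytosolic acetyl-CoA synthetase, fell by 2.64 on the log2 scale (SE 0.16, limma adjusted p = 1.34e-10). With NMN against cisplatin 4 rose and 17 fell, or 5 and 12 on the rescaled values, and with NR 3 rose and 14 fell, or 4 and 10. Among all tested genes 34.0% were called lower with NMN and 32.2% with NR. Without PBS 1, cisplatin 1 and cisplatin 3 together 11 of the 27 were called with NR, where 5003 of 12960 tested genes were.

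The 6 tested genes for SIRT2 substrates were all called after cisplatin, 4 higher and 2 lower, where 59.4% of all tested genes were called. Tuba1a, an α-tubulin, rose by 2.47 (limma adjusted p = 1.07e-08), and G6pdx, the first enzyme of the pentose phosphate pathway, rose by 1.62 (limma adjusted p = 1.67e-08). Fzr1, an activator of the anaphase-promoting complex, rose by 0.8, and Pck1, the gluconeogenic PEP carboxykinase, fell by 1.95 on the log2 scale. With NMN against cisplatin 1 rose and 4 fell, or 2 and 4 on the rescaled values, and with NR 2 rose and 4 fell. Among all tested genes 15.1% were called higher and 34.0% lower with NMN, or 22.3% and 23.5% on the rescaled values. With NR the shares were 14.4% higher and 32.2% lower. Sirt2 itself was not called on the deposited scale, where all 6 of these were.

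Of 14 regulators of SIRT1, 9 rose and 1 fell after cisplatin, or 5 and 2 on the rescaled values. Counted in both directions, the called members are not far from the 59.4% of all tested genes called on the deposited scale. By direction 40.7% of all tested genes were higher and 18.6% lower, or 29.4% and 28.5% on the rescaled values. Dyrk3, a kinase that activates SIRT1, rose from 0.58 ± 0.314 TPM to 7.37 ± 0.847 TPM (SD, n = 4), a log2 change of 2.42 (limma adjusted p = 6.18e-09). Rps19bp1, an activator of SIRT1, rose by 1.63, Usp22, a deubiquitinase that stabilises SIRT1, rose by 1.21, and Hic1, a repressor of Sirt1 transcription, rose by 1.07. Activators and a repressor of SIRT1 were thus among the genes that rose. With each precursor against cisplatin 8 of the 14 fell, where 34.0% of all tested genes were called lower with NMN and 32.2% with NR. On the rescaled values 5 fell and 1 rose in each, where 23.5% and 22.4% of all tested genes were called lower.

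On the deposited scale the other deacetylases and the enzymes that add acetyl groups had called shares near that of all genes, 59.4%. On the rescaled values fewer members of either list were called, where 29.4% of all tested genes were called higher and 28.5% lower. Of 10 tested zinc-dependent deacetylases 4 rose and 1 fell after cisplatin, with a median log2 change of 0.3, and on the rescaled values 1 rose and 2 fell. Hdac7 rose by 1.7 (limma adjusted p = 5.75e-06) and Hdac11 fell by 0.47 (limma adjusted p = 0.00418). Hdac6 at 0.54 and Hdac3 at 0.38 were called on the deposited scale and not on the rescaled values. Of 12 lysine acetyltransferases 4 rose and 2 fell, or 2 and 3 on the rescaled values, with Kat7 at 1.37 and Kat8 at 0.87. Without PBS 1, cisplatin 1 and cisplatin 3 together 2 of the 12 were called, where 6391 of 12960 tested genes were. Kat2a, which is also in the nuclear substrate list, was at 0.6 and Hat1 at 0.43, and both were called on the deposited scale alone.

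The list called NAD supply, on which every sirtuin depends, held 10 tested genes. Among them are the NAD kinases Nadk and Nadk2, which use NAD and do not supply it, so its counts are not of supply alone. Of the 10, 6 fell and 1 rose after cisplatin with a median log2 change of -0.71, where 18.6% of all tested genes fell and 40.7% rose. Nampt at 0.19, Nmnat1 at 0.02 and Nmnat3 at 0.46 were not called (limma adjusted p = 0.31, 0.953 and 0.0694). Qprt, which makes the NAD precursor nicotinic acid mononucleotide from quinolinate, went from 53.0 ± 4.86 TPM to 16.6 ± 4.78 TPM (SD, n = 4), a log2 change of -1.65. Nmrk1, the kinase that turns NR into NMN, fell by 0.84, and Nadk2, the mitochondrial NAD kinase, fell by 1.15 on the log2 scale. Nadk, the cytosolic NAD kinase, was the 1 gene that rose, by 0.84. With NMN and with NR against cisplatin 6 rose and 1 fell in each, beside 15.1% and 14.4% of all tested genes called higher.

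Of 7 other NAD-consuming enzymes tested, 3 rose after cisplatin, near the 40.7% of all tested genes that did. Bst1, an NAD glycohydrolase of the cell surface, rose by a log2 change of 3.26 (SE 0.32, limma adjusted p = 9.56e-08), from 1.58 ± 1.09 TPM to 22.5 ± 2.89 TPM (SD, n = 4). Parp3 rose by 1.2, and Tnks2, a tankyrase, was called at 0.48 on the deposited scale and not on the rescaled values. Cd38, the related NAD glycohydrolase, was not called at -0.41 (limma adjusted p = 0.197). In each precursor comparison with cisplatin 3 of the 7 fell, where 34.0% of all tested genes were called lower with NMN and 32.2% with NR.

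Against PBS, where 6.0% of all tested genes were called with NMN and 10.0% with NR, at most 1 member of any of these 8 lists was called with NMN. With NR at most 4 were, in the nuclear substrate list, where all 4 were higher than in PBS. Other lists also held calls with NR. Of 20 mitochondrial substrates 1 was higher and 2 were lower, and 1 of 10 NAD supply genes was lower. On the rescaled values 7 of the 20 mitochondrial substrates were called, where 1522 of 12960 tested genes were. Called higher were 2 of 6 SIRT2 substrates, 2 of 14 regulators of SIRT1, 1 of 10 zinc-dependent deacetylases and 1 of 7 other NAD-consuming enzymes.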

How the data were processed

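Whole-kidney RNA of WT mice was sequenced in 16 libraries, 4 in each of 4 groups. The authors deposited 1 table of TPM values per gene and library. Libraries were made with a TruSeq RNA kit, per the labels' protocols. The submitters' processing notes name HTSeq 0.6.1, STAR 2.4.1d, DESeq2 1.10.1, Trim Galore and the builds GRCm38 and mm10, without their roles; the strand setting is not given in the sources used here.

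Symbols were read from the brackets of each gene name, and 94 of 23982 entries that share a symbol were summed. TPM values were tested with limma 3.58.1 (R 4.3.3) on log2(TPM + 1), 4 group means, trend and robust settings, 12 residual degrees of freedom. Genes with 1 TPM in at least 4 libraries entered (12960), and p-values were adjusted over all of them by Benjamini-Hochberg. No count model was used, since TPM values are not counts. The code was tested on simulated data. 

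The members and lists were chosen with earlier results of these data known. Named genes were the 7 sirtuins, the nearest protein-coding, overlapping or divergently starting genes (within 1000 bases), the 3 genes with the most similar profile (1 of them is not reported here), and the 4 members of each list with the smallest adjusted p in cisplatin against PBS. Replicate numbers were not treated as pairs. Alternatives covered scaling, filter, pseudocount, weights, block, samples in the fit and libraries left out. Promoter windows were from RefSeq on GRCm38.p6, and all 7 sirtuins matched; sequences of proteins were not used here.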

Additional observations from a re-analysis of the deposited data

Results flagged for a closer look

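Sirt5 in cisplatin with NR had 1 library apart from the rest, replicate 4 at 11.86 TPM, beside 7.73 to 8.11 TPM in the other replicates. The gap to the nearest library was 0.908 of the group's range, above Dixon's critical value for 4 samples. Among the 28 groups of 4 libraries examined (7 sirtuins in 4 groups) this was the single such value, and chance gives about 1 in 20.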

How the results depend on the processing

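Sirt3 and Sirt6, in cisplatin against PBS and in each precursor against cisplatin, had the same call and direction under all 19 alternatives, 114 values in all. Of 798 sirtuin values under alternatives, 726 kept direction and side of the threshold, 14 lost and 10 gained a call, and 48, none of them called on the deposited scale, changed sign. The cause was not tested. TPM values keep no read depth, which leaves counting error unknown.

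Called sirtuins in cisplatin against PBS numbered 5 under median-of-ratios and quantile scaling, against 3. Of 12960 tested genes 7502 and 7433 were called under these scalings, against 7693 on the deposited scale. Values that changed sign are log2 differences, given for median-of-ratios, removal of mitochondrially encoded genes and quantile scaling in that order. In cisplatin against PBS Sirt5 was at -0.16, -0.107 and -0.198. In NMN against cisplatin Sirt2 was at 0.186, 0.135 and 0.149 and Sirt7 at 0.235, 0.185 and 0.211, with 0.01 for Sirt7 under array weights. In NR against cisplatin Sirt1 was at 0.095, 0.088 and 0.088, Sirt2 at 0.151, 0.139 and 0.147, Sirt4 at 0.028, 0.016 and 0.045, and Sirt7 at 0.126, 0.114 and 0.125. Sirt2 in NMN against NR was at -0.003 without mitochondrially encoded genes, and Sirt6 in NMN against PBS at -0.036 under quantile scaling. Rinl in cisplatin against PBS was at -0.029 under median-of-ratios and -0.01 under quantile scaling. Without PBS 1, cisplatin 1 and cisplatin 3 together, Sirt4 in NMN against cisplatin was at -0.032, Sirt6 in NMN against PBS at -0.013, Rinl at -0.2 and Ankrd24 at 0.126.

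Leaving out 1 library at a time gave sign changes in these ranges of log2 differences. In cisplatin against PBS they were -0.121 to 0.044 for Sirt2, -0.484 to 0.014 for Sirt4, -0.123 to 0.004 for Sirt7 and -0.02 to 0.405 for Rinl. In NMN against cisplatin they were -0.106 to 0.003 for Sirt2, -0.187 to 0.311 for Sirt4 and -0.084 to 0.094 for Sirt7, and in NR against cisplatin -0.471 to 0.027 for Sirt4. In NMN against PBS they were -0.335 to 0.011 for Sirt4, -0.103 to 0.331 for Sirt6 and -0.149 to 0.028 for Sirt7. In NMN against NR they were -0.048 to 0.061 for Sirt2, -0.041 to 0.178 for Sirt3 and -0.001 to 0.177 for Sirt7.

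Called members of a list moved by more than 1.5 times in some alternatives. In cisplatin against PBS zinc-dependent deacetylases ranged from 2 to 6 and acetyltransferases from 2 to 6. In NMN against cisplatin the ranges were 1 to 3 and 1 to 4, and in NR against cisplatin 2 to 5 and 1 to 5, with 11 to 18 for nuclear substrates and 5 to 8 for regulators of SIRT1. Against PBS no list exceeded 3 called members with NMN or 7 with NR, the latter being mitochondrial substrates after median-of-ratios scaling. In that setting 1522 of 12960 tested genes were called with NR against PBS.

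The labels do not say that a replicate number marks a shared animal, litter or day, so the samples were treated as unpaired. Same-numbered libraries of different groups had correlations of their deviations from -0.13 to 0.287 (median 0.0678, against -0.0142 for other numbers). Of 16 libraries, 13 correlated best with a library of the same number, a hint of shared numbering that comes from the data and not the design. With the replicate number as a block the called sirtuins numbered 3, 3 and 2 in cisplatin against PBS, NMN against cisplatin and NR against cisplatin, and 0 in each of the other comparisons. Of 12960 tested genes, 7839 were called with the block in cisplatin against PBS, 6507 in NMN against cisplatin and 6184 in NR against cisplatin.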
